A study of Mus musculus with 6 samples.

Results

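The 10 genes described here encode bridging proteins, receptors and scavenger molecules by which phagocytes take up dying cells and modified lipoproteins. They were chosen by name, with earlier results of these data known, and found through the platform's gene symbols. The 10 are Mfge8, Gas6, Mertk, Axl, Stab1, Cd36, Msr1, Marco, Cd163 and Cd5l. All 10 were measured, through 18 probe sets, among 18193 genes tested. Bone marrow cells from healthy C57BL/6 mice received a mimic oligonucleotide of miR-142-3p (3 arrays, "mimic") or a control oligonucleotide (3 arrays, "control"). In both groups the oligonucleotide was used at 100 nM with the reagent GeneSilencer, GM-CSF and IL-6 followed after 5 h, and RNA was taken after 4 days of cytokine culture, which yields myeloid-derived suppressor cells (MDSCs). The labels give neither the ages of the mice nor whether the arrays of a group came from separate cultures or from pooled animals. The p-values therefore set the difference between the groups only against the spread among these arrays, and that spread may be technical.

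Cells that die by apoptosis expose phosphatidylserine on their surface. MFG-E8 and GAS6 are secreted bridging proteins that bind it: MFG-E8 links it to integrins of the phagocyte, and GAS6 links it to the TAM receptor kinases, which include MERTK and AXL. Scavenger receptors such as CD36, MSR1 and MARCO bind oxidised lipoproteins, microbes and dying cells, and macrophages are their best known carriers in marrow and other tissues.

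The transfected molecule mimics the microRNA below, shown because its mimic is the labelled difference between the groups. The mature sequence is RefSeq's mouse miR-142a-3p (GRCm38.p6, chr11:87756903-87756925, plus strand), with its seed, bases 2 to 8, in capitals.
mmu-miR-142a-3p: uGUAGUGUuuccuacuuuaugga

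With the mimic, Mfge8 was 4.71-fold lower and Cd5l, which encodes a secreted macrophage protein, was higher by 1.16 on the log2 scale. The control values of Cd5l, 1.02 to 1.61, lay near the range below 1 that holds 52.6% of all deposited values. No detection call comes with the values used here, so no fold over background can be given for it. These were the members that passed the test over all genes (limma, Benjamini-Hochberg adjusted p under 0.05): 1 of 10 fell, against 1.59% of all genes tested, and 1 of 10 rose, against 1.17%. The other 8 did not pass. In 6 members the 3 mimic values lay wholly outside the 3 control values, 2 above (Cd36, Cd5l) and 4 below (Mfge8, Axl, Stab1, Marco). Such separation was found in 22.2% of all genes. The median log2 difference of the 10, mimic minus control, was 0.12, against 0.01 over all genes tested.

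**Figure D1:**
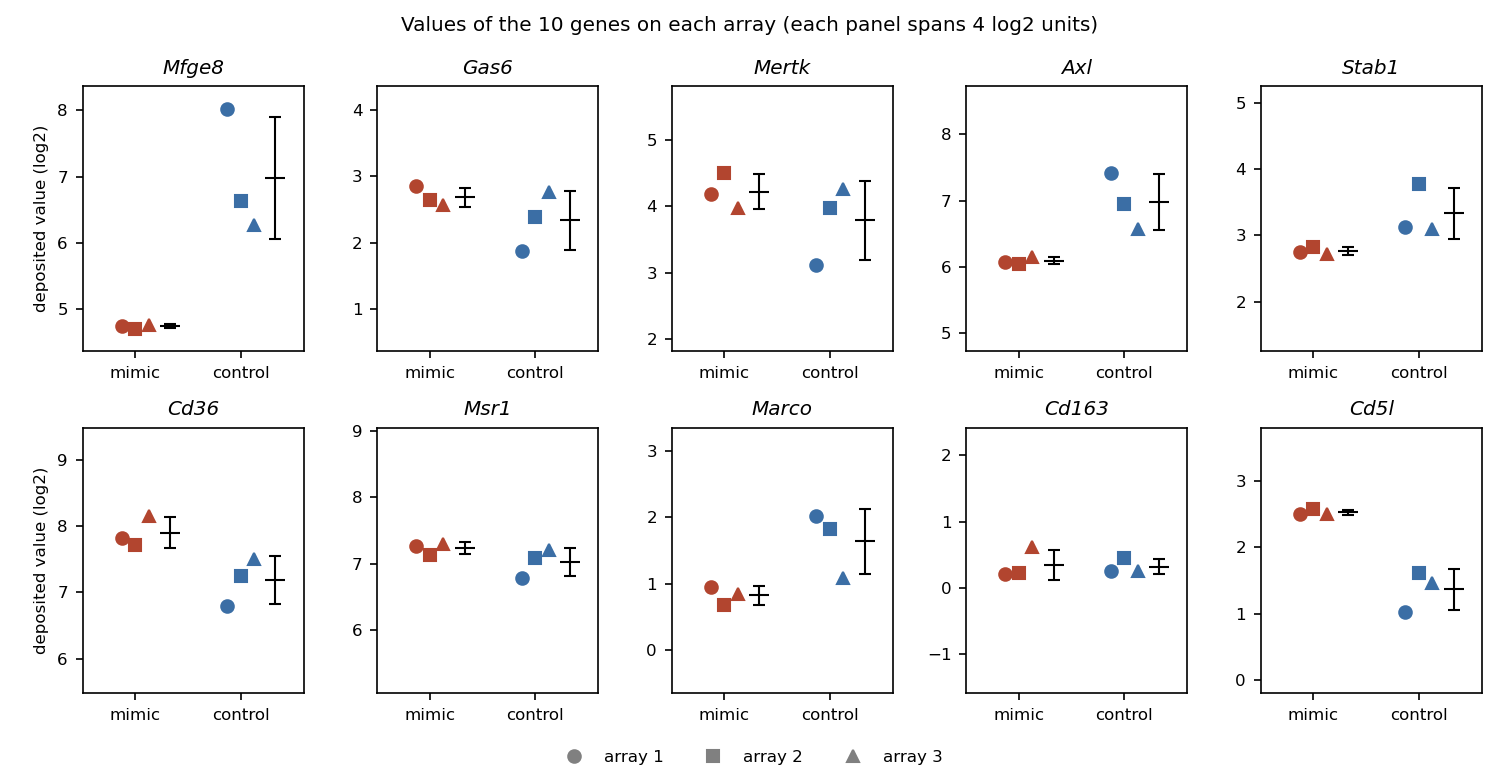
Deposited log2 value (vertical axis) of each of the 10 genes on the 3 mimic arrays (left, red) and the 3 control arrays (right, blue), with the mean and SD of each group as black bars. Mfge8 lies near 4.74 on every mimic array and between 6.28 and 8.02 on the control arrays, and Cd5l lies between 2.50 and 2.58 with the mimic and between 1.02 and 1.61 in control.

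Of the bridging proteins, Mfge8 changed. Its values, on a log2 scale as deposited, were 4.74, 4.71 and 4.77 on mimic arrays 1, 2 and 3, against 8.02, 6.63 and 6.28 on control arrays 1, 2 and 3. The mimic arrays were nearly equal and all lay below the lowest control, while the controls spread over more than 1 log2 unit, with control array 1 the highest. The means were 4.74 ± 0.03 with the mimic and 6.98 ± 0.92 in control (SD, n = 3 each), a log2 difference of -2.23 ± 0.39 (SE, 95% interval -3.14 to -1.33, adjusted p = 0.0292 by limma). Without control array 1 the difference was -1.71 (adjusted p = 0.0124 by limma), and without control array 3 it was -2.58 (adjusted p = 0.0286). It did not pass without control array 2 or without any of the mimic arrays (adjusted p = 0.105 to 0.154 by limma), fits in which 0 to 65 genes passed in all. Mfge8 has a single probe set, and when all 45037 probe sets were tested together, 0.897% of them passed and it did not (adjusted p = 0.0594 by limma).

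Gas6, whose product carries phosphatidylserine to the TAM receptors, gave 2.85, 2.64 and 2.57 on mimic arrays 1, 2 and 3, against 1.88, 2.38 and 2.76 on control arrays 1, 2 and 3. The groups overlapped through control array 3. Its log2 difference was 0.35 ± 0.21 (SE, 95% interval -0.14 to 0.83, adjusted p = 0.466 by limma), an interval that holds neither a fall as large as that of Mfge8 nor a rise of 1 log2 unit. It was 0.12 without control array 1, 0.56 without control array 3, and with both Gas6 probe sets averaged 0.21.

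The 2 TAM receptor genes among the members had mean differences of opposite sign, and neither passed. Axl encodes a receptor kinase for which GAS6 is the main ligand. It stood at 6.08, 6.05 and 6.16 on mimic arrays 1, 2 and 3, against 7.41, 6.95 and 6.57 on control arrays 1, 2 and 3. The groups did not overlap, and the controls again ran downward from array 1 as for Mfge8. Its log2 difference was -0.88 ± 0.19 (SE, 95% interval -1.33 to -0.43, adjusted p = 0.0623 by limma), a 1.84-fold lower mean with the mimic. Mertk, the TAM receptor most tied to uptake of dying cells by macrophages, had 4.19, 4.51 and 3.97 on mimic arrays 1, 2 and 3, against 3.12, 3.97 and 4.27 on control arrays 1, 2 and 3. Its groups overlapped, and control array 1 was the lowest of all 6. The log2 difference of Mertk was 0.43 ± 0.28 (SE, 95% interval -0.22 to 1.09, adjusted p = 0.506 by limma), and it was 0.10 without control array 1, 0.68 without control array 3 and 0.23 with array weights. Whether Axl and Mertk differ in their response was not tested.

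Stab1 encodes stabilin-1, a receptor of macrophages and sinusoidal endothelium that binds phosphatidylserine and modified lipoproteins. Its values were 2.75, 2.83 and 2.72 on mimic arrays 1, 2 and 3, against 3.13, 3.78 and 3.10 on control arrays 1, 2 and 3. All mimic values lay below all controls, here with control array 2 the highest. The log2 difference was -0.57 ± 0.18 (SE, 95% interval -0.99 to -0.15, adjusted p = 0.158 by limma), and -0.35 without control array 2.

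**Figure D2:**
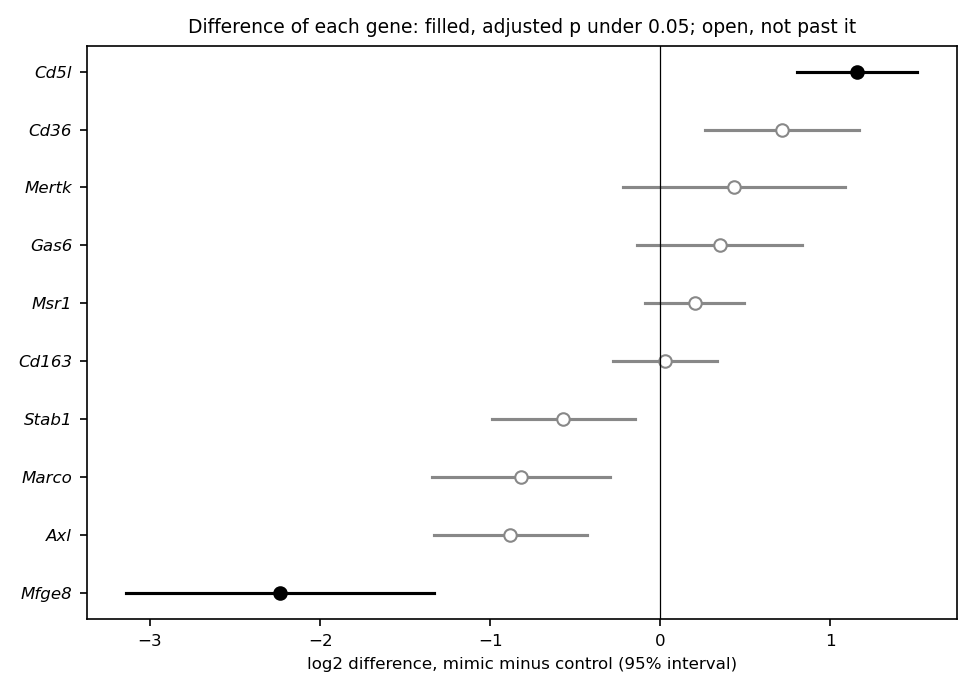
Log2 difference, mimic minus control (horizontal axis), of the 10 genes with its 95% interval, from Cd5l at the top to Mfge8 at the bottom. Filled points mark the genes with an adjusted p under 0.05, Cd5l (1.16) and Mfge8 (-2.23), and open points the 8 others.

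The scavenger receptors had mean differences of both signs, and Cd36, Msr1, Marco and Cd163 did not pass. Cd36 encodes a class B receptor for oxidised lipoproteins and long-chain fatty acids that also helps to hold dying cells. It stood at 7.82, 7.72 and 8.16 on mimic arrays 1, 2 and 3, against 6.80, 7.25 and 7.51 on control arrays 1, 2 and 3. Every mimic value exceeded every control value, with control array 1 the lowest. The log2 difference was 0.72 ± 0.19 (SE, 95% interval 0.26 to 1.17, adjusted p = 0.11 by limma). Its other 2 probe sets had log2 differences of 0.65 and 0.85, also with separate groups, and did not pass either (adjusted p = 0.144 and 0.136 by limma in the fit of all probe sets).

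Msr1 and Marco both encode class A scavenger receptors, collagen-like trimers of macrophages. Msr1 had 7.26, 7.13 and 7.30 on mimic arrays 1, 2 and 3, against 6.79, 7.08 and 7.21 on control arrays 1, 2 and 3. These ranges overlapped, and the log2 difference was 0.20 ± 0.13 (SE, 95% interval -0.09 to 0.50, adjusted p = 0.483 by limma), and 0.09 without control array 1 or 0.13 with array weights. The remaining 3 probe sets lay between -0.04 and 0.27 in log2 difference, and all overlapped between the groups. Marco, which binds bacteria and particles, had 0.95, 0.68 and 0.85 on mimic arrays 1, 2 and 3, against 2.02, 1.82 and 1.09 on control arrays 1, 2 and 3. Its mimic values lay below all controls, in that range below 1. The log2 difference was -0.82 ± 0.23 (SE, 95% interval -1.34 to -0.29, adjusted p = 0.114 by limma), and the second Marco probe set, with all values between 0.50 and 0.79, had a log2 difference of -0.05. With both averaged it was -0.43.

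Cd163 and Cd5l encode proteins built from scavenger receptor cysteine-rich domains. CD163 takes up haemoglobin bound to haptoglobin and marks mature macrophages. Cd163 had 0.21, 0.22 and 0.61 on mimic arrays 1, 2 and 3, against 0.26, 0.45 and 0.26 on control arrays 1, 2 and 3. All 6 values lay below 1. Its log2 difference was 0.03 ± 0.13 (SE, 95% interval -0.28 to 0.34, adjusted p = 0.945 by limma). CD5L, also called AIM, is secreted by tissue macrophages and binds lipids and dying-cell debris.

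Cd5l stood at 2.50, 2.58 and 2.50 on mimic arrays 1, 2 and 3, against 1.02, 1.61 and 1.47 on control arrays 1, 2 and 3. The mimic arrays were again nearly equal and all lay above the highest control. The means were 2.53 ± 0.04 with the mimic and 1.37 ± 0.31 in control (SD, n = 3 each), a log2 difference of 1.16 ± 0.15 (SE, 95% interval 0.81 to 1.51, adjusted p = 0.0136 by limma). Without control array 1 the difference was 0.99 (adjusted p = 0.0151 by limma), and without control array 3 it was 1.21 (adjusted p = 0.031). It missed the threshold without control array 2 or any single mimic array (adjusted p = 0.0593 to 0.097 by limma). In the fit of all probe sets it passed (adjusted p = 0.0298 by limma).

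**Figure D3:**
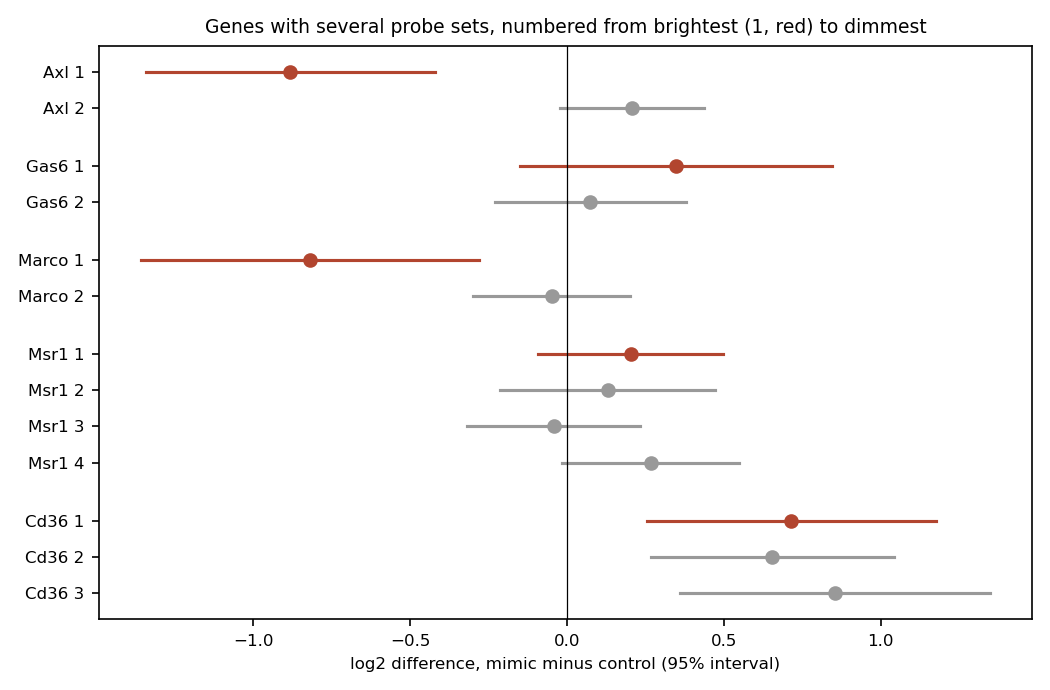
Log2 difference, mimic minus control, with its 95% interval for every probe set of the 5 genes that have several, numbered from brightest (1, red) to dimmest (grey), in the fit of all probe sets. The 3 Cd36 probe sets lie together at 0.65 to 0.85, while the second probe sets of Axl (0.21) and Marco (-0.05) do not follow the first (-0.88 and -0.82).

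Across the 10 genes, control array 1 was the control farthest from the mimic mean in 8, all but Stab1 and Cd163. The same held for 52.5% of all genes. The SD was smaller with the mimic than in control in 9 of the 10, Cd163 being the exception, and in 55.7% of all genes. The second Axl probe set, with every value below 0.28, had a log2 difference of 0.21, opposite in sign to the first. With both probe sets averaged the log2 difference of Axl was -0.34 (adjusted p = 0.219 by limma). Axl passed instead when genes with a mean log2 below 3 or below 5 were left out (adjusted p = 0.0344 and 0.0244 by limma), without control array 3 (adjusted p = 0.0286), and with a trended robust variance, array weights, median centring or quantile normalisation (adjusted p = 0.0225 to 0.0455). Cd36 passed when genes below 5 were left out (adjusted p = 0.045 by limma), and Marco passed without control array 3 (-1.10, adjusted p = 0.0181).

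**Figure D4:**
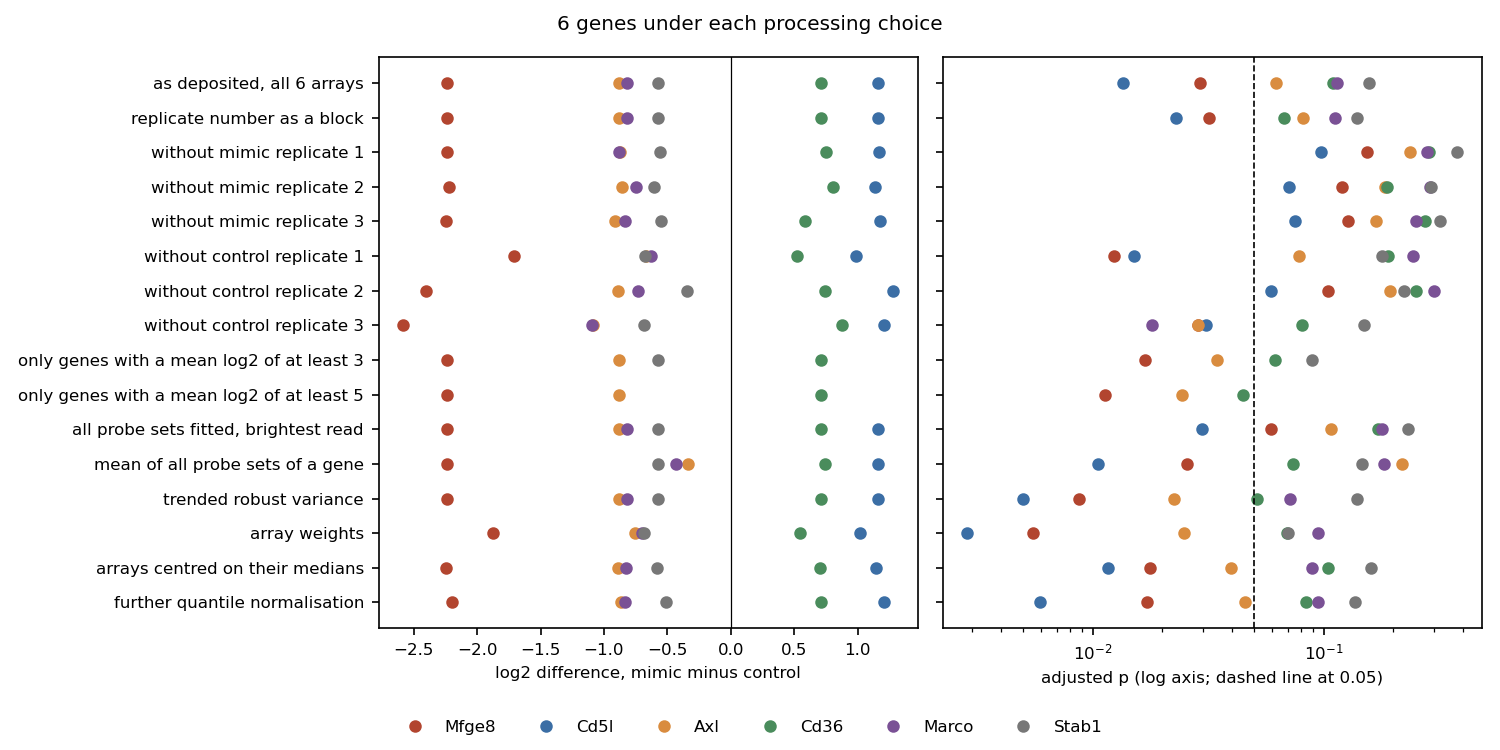
Log2 difference, mimic minus control (left), and adjusted p on a log axis (right) of 6 of the genes under each processing choice, with the threshold of 0.05 as a dashed line. Mfge8 stays between -2.58 and -1.71 and Cd5l between 0.99 and 1.28, while both cross the threshold when control array 2 or any mimic array is left out.

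Promoter sequence was read for the 9 members with a RefSeq entry (GRCm38.p6, 250 bases before to 50 after the start that the entry uses). The Cd36 window (chr5:17835847-17836146, minus strand) lies inside the gene, which spans 17781690 to 17888959. For Axl, Stab1 and Cd163 the start used also differs from the outer end of the gene, by fewer bases. The promoters of the members that passed are shown, since Mfge8 fell and Cd5l rose. Capitals mark matches, on either strand, to 5 motifs: GAGGAA (the core bound by PU.1, the master factor of myeloid cells), AGGTCA (the half-site of nuclear receptors), TGANTCA (AP-1), GAAANNGAA (the core of the interferon-stimulated response element) and GGGCGG (the GC box). The Mfge8 promoter lies at chr7:79149011-79149310 on the minus strand and the Cd5l promoter at chr3:87357631-87357930 on the plus strand.
Mfge8: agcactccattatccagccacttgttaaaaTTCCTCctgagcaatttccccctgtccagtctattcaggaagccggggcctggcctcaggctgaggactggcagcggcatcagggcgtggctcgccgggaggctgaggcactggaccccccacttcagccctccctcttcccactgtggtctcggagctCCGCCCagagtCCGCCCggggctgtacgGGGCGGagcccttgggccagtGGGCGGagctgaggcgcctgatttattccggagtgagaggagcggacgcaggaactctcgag
Cd5l: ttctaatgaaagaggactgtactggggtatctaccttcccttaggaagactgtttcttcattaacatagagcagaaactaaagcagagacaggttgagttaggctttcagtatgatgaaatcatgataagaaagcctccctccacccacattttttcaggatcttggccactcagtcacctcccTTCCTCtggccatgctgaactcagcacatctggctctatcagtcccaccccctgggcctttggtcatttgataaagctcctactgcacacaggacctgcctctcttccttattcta

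The promoters of Mfge8 and Cd5l differ in composition. Mfge8 has 64.3% G or C, 17 CpG dinucleotides and 4 GC boxes, all within the last 61 bases before the start, and Cd5l has 46.3% G or C, 0 CpG and 0 GC boxes. The median over all 32851 promoter windows was 52.7% G or C, and 35.7% of them hold a GC box. Each of these promoters holds 1 PU.1 core, as do 5 of the 9 members' promoters and 28.3% of all windows. GC boxes were found in 5 of the 9 (Mfge8, Gas6, Mertk, Axl and Cd36), and a nuclear receptor half-site in 1, that of Cd36, against 16.3% of all windows. Neither the AP-1 site nor the interferon element core occurs in these 9 windows, against 7.81% and 8.56% of all windows. None of the 5 motifs occurs in the Cd163 window.

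Other genes of dead-cell uptake were read from 6 lists, in which 89 further genes were measured. Of these 3 rose, 4 fell and 82 did not pass, while 1.17% of all genes tested rose and 1.59% fell. The lists were chosen with earlier results of these data known, so the counts are not independent of the data. The median log2 difference of the 89 was -0.04 against 0.01 over all genes. Among 10 bridging proteins and opsonins 2 rose and 1 fell (median -0.01). Ptx3, a secreted pattern recognition protein that binds dying cells, stood at 3.74, 4.16 and 3.63 on mimic arrays 1, 2 and 3, against 6.41, 6.23 and 5.72 on control arrays 1, 2 and 3. Its groups were more than 1 log2 unit apart, and its log2 difference was -2.27 (adjusted p = 0.00673 by limma). With all Ptx3 probe sets averaged the difference shrank to -1.15 (adjusted p = 0.00646 by limma). The other Ptx3 probe sets thus differed less, on average, than the brightest. Tgm2, which encodes tissue transglutaminase, an aid to dead-cell uptake, rose by 0.89 (adjusted p = 0.0104), and the complement chain gene C1qb rose by 0.79 (adjusted p = 0.0297). Leaving out any single array ended the call of C1qb, as did fitting all probe sets (adjusted p = 0.0569 by limma) or averaging those of the gene (0.55, adjusted p = 0.0717). Leaving out mimic array 1, mimic array 3 or control array 2 ended the calls of Ptx3 and Tgm2 (adjusted p = 0.0576 to 0.0771 by limma), and for Tgm2 so did leaving out mimic array 2 (adjusted p = 0.0534).

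Of 17 other receptors 1 rose and 0 fell (median 0.13). It was Cd300a, an inhibitory receptor for phosphatidylserine (log2 difference 0.50, adjusted p = 0.0455 by limma), which passed with all 6 arrays but in only 1 of the fits that leave out an array, that without control array 3. It did not pass with all probe sets fitted (adjusted p = 0.0765 by limma) or with those of the gene averaged (0.28, adjusted p = 0.33). Tyro3, the remaining TAM receptor gene, had 1.11 ± 0.47 with the mimic and 0.97 ± 0.15 in control (SD, n = 3 each). Its log2 difference was 0.13 (adjusted p = 0.823 by limma). The Tyro3 values, 0.73 to 1.63 over the 6 arrays, lay in or near the range below 1, which limits what can be said of it. The engulfment machinery, which carries the signal to the actin skeleton, had 0 of 17 genes past the threshold (median -0.08), and Elmo2 had the largest difference (-0.45, adjusted p = 0.171 by limma), which was -0.29 without mimic array 3 and -0.19 with its probe sets averaged. Among 17 other scavenger receptors 0 passed (median 0.03). Cxcl16, a chemokine whose membrane form also binds oxidised lipoproteins, had the largest difference there (-1.20, adjusted p = 0.0642 by limma). It passed without genes of mean log2 below 3, with its probe sets averaged, and with a trended robust variance, array weights or median centring (adjusted p = 0.017 to 0.0389).

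Of 16 genes of cargo handling and lipid efflux 1 fell and 0 rose (median -0.18). Abca1 encodes the transporter that exports cholesterol after a phagocyte has digested its cargo. It stood at 2.69, 2.83 and 1.80 on mimic arrays 1, 2 and 3, against 4.20, 4.69 and 4.20 on control arrays 1, 2 and 3, a log2 difference of -1.93 (adjusted p = 0.016 by limma). With all Abca1 probe sets averaged the difference shrank to -0.88 (adjusted p = 0.00798 by limma), so the others differed less, on average, than the brightest. In the brightest probe set each mimic value lay at least 1 log2 unit below each control value. Its call was lost when any array other than control array 3 was left out (adjusted p = 0.0511 to 0.0967). Of 13 genes for signals that draw phagocytes to dying cells 2 fell and 0 rose (median -0.20). P2ry6, a receptor for the nucleotide UDP that stimulates uptake by microglia, had 2.85, 2.88 and 2.46 on mimic arrays 1, 2 and 3, against 5.29, 4.64 and 4.44 on control arrays 1, 2 and 3. Its log2 difference was -2.06 (adjusted p = 0.00779 by limma), and that of S1pr1, a receptor for sphingosine 1-phosphate, was -0.67 (adjusted p = 0.017). Without mimic array 1, mimic array 3 or control array 2 neither passed (adjusted p = 0.0576 to 0.107 by limma), nor did S1pr1 without mimic array 2 (adjusted p = 0.0705).

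**Figure D5:**
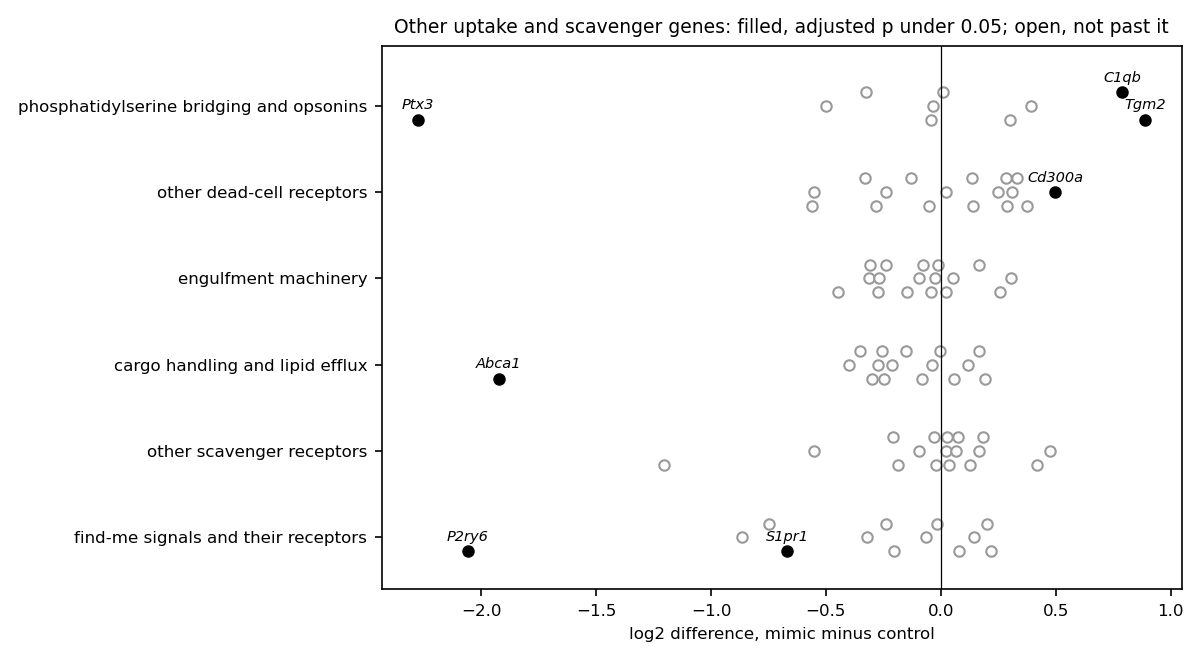
Log2 difference, mimic minus control (horizontal axis), of the other dead-cell uptake and scavenger genes, a row for each list and a point for each gene; Lrp1 stands in 2 lists. The 7 filled, named points passed an adjusted p of 0.05 and lie between -2.27 (Ptx3) and 0.89 (Tgm2), and no gene of the engulfment machinery or of the other scavenger receptors passed.

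The 5 genes whose 6 centred values were closest to those of Mfge8, by root mean square difference on the log2 scale, were Nr4a3 (0.17), Pald1 (0.21), Thy1 (0.25), Ccr7 (0.26) and Asgr2 (0.28). They were picked for this likeness. Their log2 differences ran from -2.36 in Thy1 to -1.86 in Ccr7. Asgr2 did not pass (-2.27, adjusted p = 0.0563 by limma), while the others did (adjusted p = 0.00673 to 0.022). The mimic values of Asgr2, 0.89 to 1.31, lay in or near the range below 1. In each of the 5 genes, as in Mfge8, control array 1 was the highest and control array 3 the lowest control.

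Markers of the cells that such a culture could hold were read beside these values. The counts in every marker list stand against 1.17% of all genes tested that rose and 1.59% that fell. In bulk RNA, fewer cells of a type and less RNA per cell cannot be told apart. Of 8 measured myeloid markers, none had a mean below 1 in the 6 arrays. The leukocyte antigen gene Ptprc stood between 8.62 and 8.86 with the mimic and between 8.52 and 8.70 in control, and Itgam, which encodes CD11b, stood between 5.32 and 5.58 with the mimic and between 6.22 and 6.84 in control (log2 difference -1.19, adjusted p = 0.017 by limma). In that list 3 fell and 0 rose, Lyz2 (-0.53, adjusted p = 0.0238) and Csf1r (-0.57, adjusted p = 0.0292) being the others.

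Of 8 measured dendritic markers 3 fell and 0 rose, Itgax (-2.80), Ccr7 (-1.86) and H2-Ab1 (-1.73). The other 5 did not pass, and the means of Clec10a (0.02) and Xcr1 (0.13) differed in the upward direction. Cd209a and Xcr1 had means below 1. The summed log2 value of the list ran from 24.5 to 24.9 with the mimic and from 30.2 to 35.1 in control. Of 10 stromal markers 2 fell, Dcn (-1.58) and Col1a2 (-0.95), 8 did not pass, and 3 of those had higher means with the mimic. Means were below 1 in 4, and the sum ran from 16.9 to 18.9 with the mimic and from 19.5 to 23.3 in control. Of 5 osteoclast markers 2 fell, the fusion genes Dcstamp (-2.90) and Ocstamp (-0.86). The remaining 3 did not pass and had log2 differences of -0.04, 0.03 and 0.15. The sum of the 5 ran from 9.51 to 9.74 with the mimic and from 12.3 to 14.3 in control. The part of these cell types in the lower Mfge8 value was not tested.

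The macrophage list, read beside Cd5l and Cd36, went both ways. Of 11 measured markers 1 rose (C1qb) and 1 fell (Csf1r), with 8 means higher with the mimic and 3 lower. The summed log2 value ran from 60.3 to 61.0 with the mimic and from 56.4 to 59.2 in control. Maf had the largest difference in that list (1.64, adjusted p = 0.0931 by limma) and did not pass. It stood between 6.01 and 6.33 with the mimic and between 3.43 and 5.26 in control. Timd4, a marker of tissue-resident macrophages, lay below 0.36 on every array. Of 6 platelet markers 0 passed, with sums of 35.1 to 36.9 with the mimic and 32.6 to 34.5 in control. The part of either in the values of Cd5l and Cd36 was not tested. Adipocyte markers, which bear on Cd36, had means below 1 in 3 of 4 (sums 1.82 to 2.07 with the mimic, 1.59 to 1.77 in control), and 0 passed. Endothelial markers, which bear on Stab1, had means below 1 in 5 of 8 (sums 10.5 to 11.2 with the mimic, 8.94 to 9.77 in control), and 0 passed. Of 5 B cell genes 1 fell (Ms4a1, -0.82), and 0 of 4 erythroid and 0 of 4 T and NK cell genes passed.

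The neutrophil precursor list and the mast cell and basophil list had higher sums with the mimic, and 4 of their 10 genes passed. Of 5 neutrophil precursor genes 2 rose, the granule protease genes Ctsg (1.08) and Elane (0.98), and the summed log2 value ran from 50.5 to 50.6 with the mimic and from 43.7 to 47.5 in control. Of 5 mast cell and basophil genes 2 rose, Fcer1a (1.40) and Cpa3 (1.06), and the sum ran from 30.4 to 30.7 with the mimic and from 22.5 to 27.3 in control. In each of these 10 genes the 3 mimic values lay above the 3 control values, a separation in either direction found in 22.2% of all genes. The part of these cells in the values of the 10 dead-cell uptake and scavenger genes was not tested.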

How the data were processed

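The 6 arrays are Affymetrix MOE430 2.0, and the deposited table holds 1 log2 value per probe set and array. Per the submitters' processing notes RMA and affy were used, with no version or role stated. The labels state no centring, floor or filter. The log base was taken from the values: the highest, 12.3, lies above 11.1, the natural log of a full 16-bit intensity. Array medians ran from 0.84 to 0.92 and correlations between arrays from 0.982 to 0.996.

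Each of 18193 genes was read from its brightest probe set with 1 symbol, symbols being updated through gene identifiers (34741 of 34945 matched). Mimic and control arrays were compared by limma 3.58.1 under R 4.3.3 (lmFit, eBayes, two-sided, all 6 arrays, no covariate), adjusted by Benjamini-Hochberg over all genes, and likewise over 45037 probe sets without the 64 controls. Precision is limited by the number of arrays. The method was tested on simulated data, in 10 draws with 200 changed genes each. It recovered 21% of changes of 0.5 log2 units, 76.4% of changes of 1 and 96.7% of changes of 2. Of the calls in the simulated data, 4.22% were false. The members, the 6 pathway lists and the 13 marker lists were chosen with earlier results of these data known. Of 94 pathway genes listed, 89 were analysed here. Named genes are the members, up to 3 passing genes per pathway list or otherwise the gene with the largest difference, up to 2 passing per marker list, and the 5 most like Mfge8. Tyro3, Ptprc, Lyz2, H2-Ab1, Maf, Timd4, Cd209a, Clec10a and Xcr1 were named after their values were seen.

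Alternatives were the replicate block, each array left out, filters at a mean log2 of 3 and 5, all probe sets or their mean, a trended robust variance, array weights, median centring, quantile normalisation and a minimum fold of 1.2.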

Additional observations from a re-analysis of the deposited data

How the results depend on the processing

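No alternative gave Mfge8, Cd5l or any other member but Cd163 the opposite sign. Cd163, which did not pass in any fit, turned to -0.10 without mimic array 3, to -0.004 without control array 1 or 3, and to -0.065 with array weights, and ran from -0.10 to 0.097 with 1 array left out. Besides the fits without an array, Mfge8 missed the threshold with all probe sets fitted and with a minimum fold of 1.2, and Cd5l did in none of the fits that held it. Members with a mean log2 below 5 (below 3) were not tested under the filter at 5 (at 3): 6 members remained at 3, and 4 at 5. Among all genes, those higher and lower with the mimic numbered 126 and 188 with the replicate number as a block, 104 and 160 (of these 18193) with all probe sets fitted, 456 and 591 with array weights, and 38 and 70 with a minimum fold of 1.2. Those higher numbered 320 with a trended robust variance and 322 with quantile normalisation. With 1 array left out, 0 to 165 were higher and 0 to 248 lower. With limma, 0 genes passed without mimic array 1, mimic array 3 or control array 2 (2343, 2746 and 2564 at an unadjusted p under 0.05).

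Deviations of same-numbered arrays from their group means correlated at -0.10, 0.25 and -0.19 for numbers 1, 2 and 3, and not every array correlated best with its own number. Whether the replicate numbers pair the arrays cannot be decided from this, since deviations from a mean of 3 arrays depend on one another. The replicate block left both members' calls in place (adjusted p = 0.0318 for Mfge8 and 0.023 for Cd5l by limma), while C1qb, Cd300a and S1pr1 did not pass under it (adjusted p = 0.0777, 0.107 and 0.0502). With 1 array left out, 0 to 1 members rose and 0 to 3 fell. Members that fell numbered 2 (Mfge8 and Axl) with a trended robust variance, array weights, median centring or quantile normalisation, and 0 with all probe sets or a minimum fold of 1.2. Of the pathway genes 1 rose under the block, with all probe sets, with their mean or with a minimum fold of 1.2, 5 rose with array weights, and 9 fell with a trended robust variance. With 1 array left out, 0 to 2 rose and 0 to 6 fell. The cause of these shifts was not tested. Signal near the arrays' lower end limits what can be said of Cd163, Marco and Cd5l.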

Other observations

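The 3 chains of the complement protein C1q, which opsonises dying cells, had mean differences of both signs, and C1qb passed. C1qb stood at 7.77, 7.47 and 7.53 on mimic arrays 1, 2 and 3, against 6.55, 6.91 and 6.94 on control arrays 1, 2 and 3. C1qa had 5.69, 5.75 and 5.78 on mimic arrays 1, 2 and 3, against 6.02, 6.35 and 6.33 on control arrays 1, 2 and 3 (log2 difference -0.50, adjusted p = 0.0677 by limma). C1qc had 5.98, 5.97 and 5.74 on mimic arrays 1, 2 and 3, against 5.24, 5.56 and 5.72 on control arrays 1, 2 and 3 (log2 difference 0.39, adjusted p = 0.205). In each chain the groups did not overlap, with the mimic above control in C1qb and C1qc and below it in C1qa. Such separation, in either direction, was found in 22.2% of all genes. The difference between the chains was not tested, and C1qa and C1qc were named after their values were seen.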
